A study of Mus musculus with 4 samples.

Results

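Among Treg cells sorted from mouse liver and spleen, 64 of 20109 T cells had no captured Foxp3 transcript but had transcripts typical of innate-like lymphocytes. They were chosen by a rule. A barcode needed 500 or more genes, at most 10% mitochondrial (mt-) UMIs, at least 1 UMI of Cd3e, Cd3d or Cd3g, 0 UMIs of Foxp3, and at least 3 UMIs summed over Xcl1, Klrd1, Gzmk and Ly6c2. These 64 cells are called members below, and the 4 summed genes are called rule genes. A UMI is a molecular tag that marks 1 captured transcript. Members numbered 27 in 7-week liver, 6 in 7-week spleen, 19 in neonatal liver and 12 in neonatal spleen. The cells they were set against are the Foxp3-positive cells of the same library, with at least 1 Foxp3 UMI, which numbered 1441, 3810, 4144 and 4280 in that order. A further 6370 cells had no Foxp3 UMI and stayed below the threshold of the rule.

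The mice were C57BL/6 with a GFP tag on Foxp3, which encodes the defining regulator of Treg cells. They were 7 weeks old (stage label "aged") or 12 days old (stage label "neonatal"). The design text gives the 12-day animals as Foxp3GFP-Cre Rosa26loxP-Stop-loxP-YFP mice and does not give an allele for the 7-week animals beyond the shared GFP tag. Lymphocytes were selected on CD4 microbeads, GFP-positive CD4+ cells were taken by flow sorting, and the 10x Genomics chemistry used reads transcripts from the 5' end. There is 1 library per age and tissue, and the number of mice behind a library is not given. Every p-value below thus weighs a difference against its fitted spread over 4 libraries that themselves differ in age and tissue. It does not show that the difference recurs in each library, and a gene with member UMIs in only 1 library can still be called. Members are cells without a captured Foxp3 transcript in a sort that selected for Foxp3-driven GFP. Whether they lacked Foxp3 protein was not measured.

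Innate-like T cells, among them invariant NKT cells, some gamma delta T cells and memory-like T cells, share an effector program with natural killer (NK) cells. They respond quickly and to a narrow set of ligands, and several kinds settle in the liver. Xcl1 encodes a chemokine that attracts cross-presenting dendritic cells, Klrd1 the CD94 receptor chain of NK cells, Gzmk a granule protease, and Ly6c2 a surface protein of memory T cells and monocytes. Treg cells restrain immune responses and can take up parts of effector programs themselves.

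The data held 24546 barcodes and 7442185 to 33813594 UMIs per library. Members had median depths of 3909, 3714, 5063 and 8996.5 UMIs in 7-week liver, 7-week spleen, neonatal liver and neonatal spleen, against 2934, 3137, 5051 and 4990.5 UMIs in Foxp3-positive cells. The libraries shared 23 to 91 barcode sequences per pair, and 1 of these was a member, shared between 7-week liver and neonatal spleen. Scores for doublets (2 cells in 1 droplet), taken at an expected rate, marked 1 member of neonatal liver and 1 of neonatal spleen. Markers of neutrophils were at 0 in members of all 4 libraries, and those of hepatocytes at 0 in 3 of them, with 2 UMIs in neonatal spleen.

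The promoters of 3 genes that the results turn on, 1 from the rule and 2 outside it, are shown for context. They are the 250 bases before the start site, from RefSeq on GRCm38.p6, read 5′ to 3′ on the strand of the gene. Capitals mark the T-box motif TCACAC (the kind of site bound by T-bet and Eomes) and the RUNX site TGTGGT, on either strand. In all windows of this length the 2 motifs were present in 12.29% and 14.05% of 32851. Xcl1 lies at chr1:164935523-164935772 on the minus strand, Cxcr6 at chr9:123806227-123806476 on the plus strand and Nkg7 at chr7:43436888-43437137 on the plus strand. No matched motifs overlap in these windows, and a match describes letters only. Windows of Cd160 and Id2 were also read and are not shown. Each Cd160 window had 1 match of each motif, and the Id2 window had 0 of either.
Xcl1: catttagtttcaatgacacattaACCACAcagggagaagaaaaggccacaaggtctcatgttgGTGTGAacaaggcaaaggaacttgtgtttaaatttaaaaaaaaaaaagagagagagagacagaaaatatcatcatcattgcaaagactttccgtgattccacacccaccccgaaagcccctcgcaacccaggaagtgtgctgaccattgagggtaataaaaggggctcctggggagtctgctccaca
Cxcr6: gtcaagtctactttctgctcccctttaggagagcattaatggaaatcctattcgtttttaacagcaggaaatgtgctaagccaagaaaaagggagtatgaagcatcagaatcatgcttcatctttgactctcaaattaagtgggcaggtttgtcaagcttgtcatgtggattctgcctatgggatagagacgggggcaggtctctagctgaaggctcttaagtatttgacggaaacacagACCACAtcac
Nkg7: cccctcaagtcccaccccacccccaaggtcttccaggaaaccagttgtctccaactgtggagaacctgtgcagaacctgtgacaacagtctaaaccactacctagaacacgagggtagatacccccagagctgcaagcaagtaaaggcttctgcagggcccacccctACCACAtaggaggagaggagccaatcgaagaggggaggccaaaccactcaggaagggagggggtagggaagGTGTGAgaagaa

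Members were most frequent in 7-week liver. They made up 1.13% of its filtered T cells (95% exact binomial interval 0.744 to 1.64%), against 0.100% in 7-week spleen (0.0368 to 0.218%). In neonatal mice the shares were 0.339% in liver (0.204 to 0.528%) and 0.196% in spleen (0.101 to 0.342%). The intervals cover counting error only, and no test of age or tissue was made on the shares. The share depends on depth. When every cell was first reduced to 1000 UMIs it was 0.511%, 0.0357%, 0.161% and 0.0531% in 7-week liver, 7-week spleen, neonatal liver and neonatal spleen, with 7-week liver still highest. Among Foxp3-positive cells, 71 of 13675 (0.519%) had 3 or more rule gene UMIs.

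**Figure D1:**
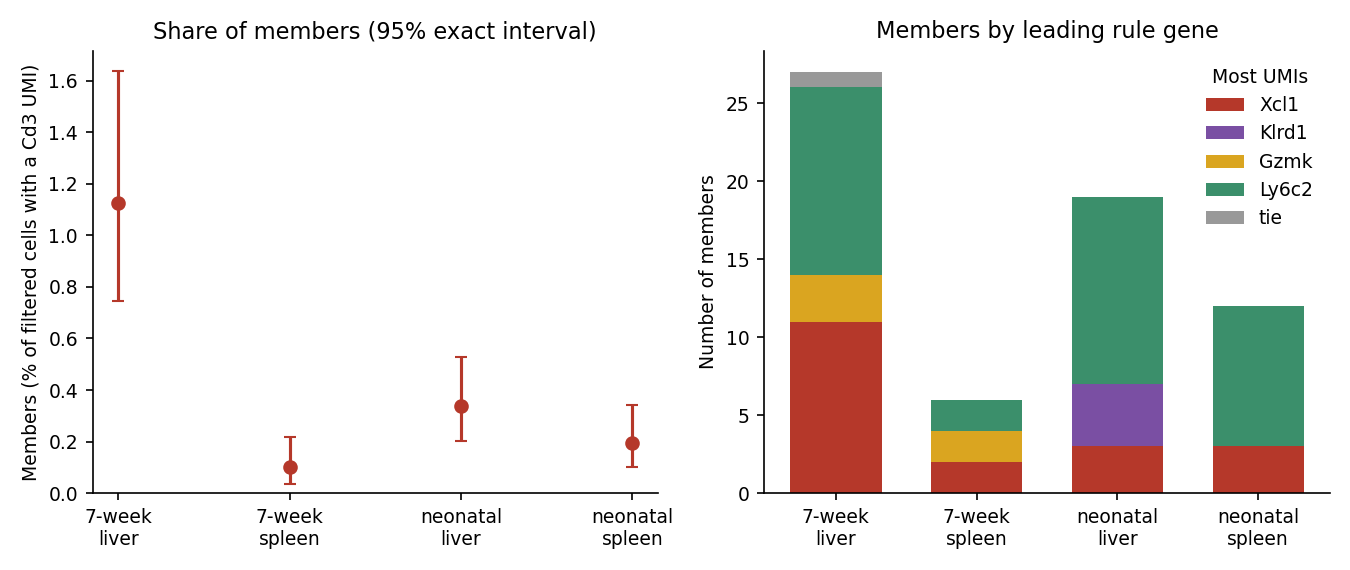
Left, members as a percentage of filtered T cells in each library, with 95% exact binomial intervals. Right, the number of members by the rule gene with most UMIs; 7-week liver has the highest share and the most Xcl1-led members (11), and the 4 Klrd1-led members are all in neonatal liver.

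The values of the rule genes chose the cells and are given as a description. The highest sum of rule gene UMIs in a member was 31 in 7-week liver, 14 in 7-week spleen, 107 in neonatal liver and 78 in neonatal spleen. Just inside the threshold, 11, 2, 3 and 2 members in that order had exactly 3 UMIs. Just outside it, 6, 11, 8 and 6 Foxp3-zero cells had 2 UMIs.

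The members are not 1 uniform type. Ly6c2 led in 35 members, Xcl1 in 19, Gzmk in 5 and Klrd1 in 4, with 1 tie. In 45 members only 1 rule gene was detected, and in 23 of them that gene was Ly6c2. Of the 19 members with 2 or more rule genes, 13 were from 7-week liver, 5 from neonatal liver, 1 from neonatal spleen and 0 from 7-week spleen. Klrd1, which names the set, was detected in 11 of 64 members. Xcl1 was detected in 29 members, 19 of them in 7-week liver. Summed Xcl1 was at 685, 778, 1184 and 866 CPM (counts per 1000000 UMIs of the same summed cells) in members of 7-week liver, 7-week spleen, neonatal liver and neonatal spleen, against 0.204, 0.939, 2.69 and 4.32 CPM in Foxp3-positive cells. The level rested on few cells, and 1 cell held 31 of 81 UMIs in 7-week liver, 14 of 17 in 7-week spleen, 107 of 133 in neonatal liver and 78 of 102 in neonatal spleen.

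**Figure D2:**
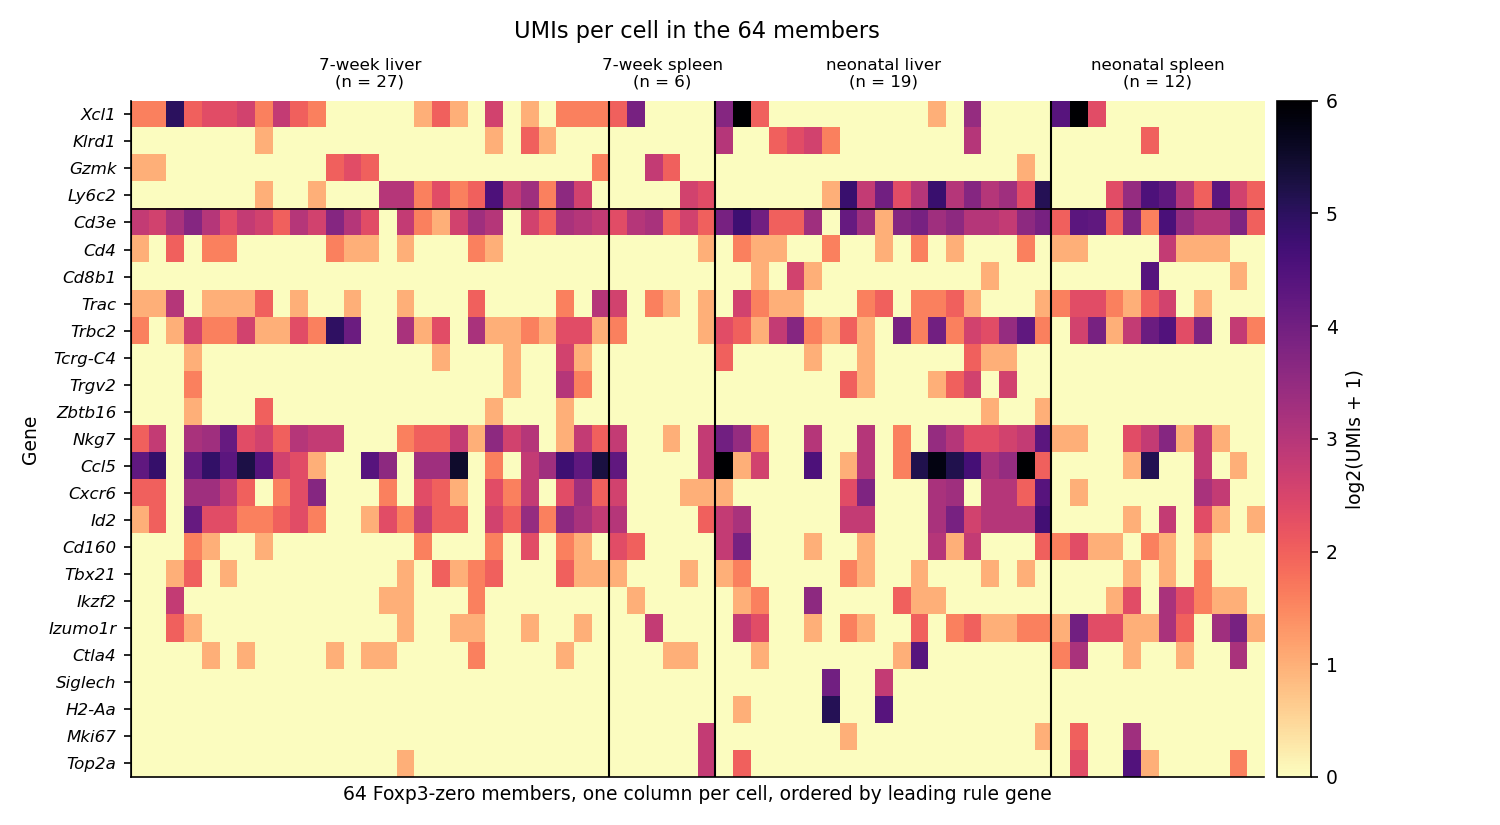
UMIs per cell, as log2(UMIs + 1), in the 64 members, one column per cell, grouped by library and ordered by leading rule gene. In 19 of the 64 members 2 or more rule genes (above the line) coincide, 13 of them in 7-week liver. Counts below are of the 27, 6, 19 and 12 members of 7-week liver, 7-week spleen, neonatal liver and neonatal spleen. Nkg7 was detected in 22, 3, 13 and 8 and Ccl5 in 21, 2, 15 and 4. Cxcr6 was detected in 19, 3, 9 and 3 and Id2 in 23, 2, 11 and 5. The 4 Treg genes, of which Il2ra is not drawn, summed to 5 or more UMIs in 2, 1, 4 and 8. Siglech and H2-Aa coincide in 2 barcodes of neonatal liver.

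T cell receptor constant genes (Trac, Trbc1 or Trbc2) had UMIs in 59 of 64 members. Cd3 genes, which the rule required, had a median of 17.5 UMIs per member. Ncr1, which encodes the NK receptor NKp46, had 0 UMIs in 64 members, which allows a share of up to 5.60% of cells with a UMI. Klra8 and Klra4, receptors of mature NK cells, were also at 0. Summed over all 8 NK cell markers, members were at 50.7, 0, 1344 and 8.49 CPM in 7-week liver, 7-week spleen, neonatal liver and neonatal spleen, against 12.6, 11.7, 18.2 and 16.6 CPM in Foxp3-positive cells. In neonatal liver most of that sum was Tyrobp and Fcer1g, adaptors of activating receptors. A pair of its members with T cell receptor transcripts held 13 and 14 Fcer1g UMIs, 1 and 3 Tyrobp UMIs and 7 Klrd1 UMIs each, and most Tyrobp UMIs were in the 2 barcodes with dendritic cell genes described below. Cd4 was detected in 25 of 64 members (39.1%), against 49.3% of Foxp3-positive cells. Shares over all 64 members, here and below, pool 4 libraries that members and Foxp3-positive cells draw on in unlike proportion. Their intervals cover counting error only. Cd8a or Cd8b1 was detected in 7 members, all of them neonatal, and 3 members had 2 or more such UMIs.

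Gamma receptor genes marked a portion of the members. A gamma constant gene was detected in 14 of 64 members (21.9%, 95% exact interval 12.5 to 34.0%), against 1.09% of Foxp3-positive cells and 1.11% of Foxp3-zero cells below the threshold. Within 7-week liver it was detected in 22.2% of members and 0.972% of Foxp3-positive cells. With every cell reduced to 1000 UMIs the shares were 9.38% of members and 0.344% of Foxp3-positive cells. The variable gene Trgv2 was detected in 10 members (15.6%), against 0.329% of Foxp3-positive cells. Members with a gamma constant gene were all from the livers, with 6 members of 7-week liver and 8 of neonatal liver and 0 of 6 and 0 of 12 in the 7-week and neonatal spleens. The delta constant gene Trdc was detected in 1 member only, and all 14 members with a gamma constant gene also had Trac or Trbc UMIs. The 14 had 0 Cd4 UMIs, and 14 of them had Nkg7 and 13 had Ccl5.

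An alpha segment of the invariant NKT receptor was present in few cells but often relative to the rest. Trav11, Trav11d or Traj18, the segments of its alpha chain, were detected in 6 of 64 members (9.38%, interval 3.52 to 19.3%), against 0.154% of Foxp3-positive cells and 0.267% of Foxp3-zero cells below the threshold. These 6 were 2 members of 7-week liver, 1 of 7-week spleen and 3 of neonatal liver. All 6 rest on Trav11 or Trav11d, since Traj18, the joining segment, had 0 UMIs in members of every library. Traj18 did have UMIs in Foxp3-positive cells of every library. All 6 members also had a UMI of Trbv13-2, Trbv1 or Trbv29, the beta segments that pair with this alpha chain. These beta segments are common, with UMIs in 29 of 64 members (45.3%) and 33.6% of Foxp3-positive cells. All 6 members with an alpha segment had Cxcr6, Nkg7 and Ccl5, and 5 had Cd160. Zbtb16, the PLZF regulator of NKT cells, was detected in 6 members (9.38%), against 0.102% of Foxp3-positive cells, and 3 cells had both it and Trav11 or Trav11d. Klrb1c, which encodes NK1.1, had 3 UMIs in 1 member of 7-week liver and 0 in the other libraries, and Trav1, the alpha segment of MAIT cells, was at 0 in all members. Trbv13-2 alone had UMIs in 23 members (35.9%), against 24.9% of Foxp3-positive cells, and so is common in both.

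Cells with Treg transcripts remained among the members. UMIs of Ikzf2, Il2ra, Ctla4 and Izumo1r summed to 5 or more in 15 of 64 members, of which 8 were among the 12 of neonatal spleen. The 2 of 27 in 7-week liver, 1 of 6 in 7-week spleen and 4 of 19 in neonatal liver made up the rest. All 15 had only 1 rule gene. In contrast, 20 members had 0 UMIs of the 4 Treg genes, 13 of them in 7-week liver, 5 in neonatal liver, 2 in 7-week spleen and 0 in neonatal spleen. Neonatal spleen members were also the deepest. With every cell reduced to 1000 UMIs, a Treg gene UMI remained in 3.70% of members in 7-week liver, 16.7% in 7-week spleen, 47.4% in neonatal liver and 58.3% in neonatal spleen. Over all libraries this was 28.1% of members, against 78.7% of Foxp3-positive cells and 72.4% of Foxp3-zero cells below the threshold. The name innate-like thus holds for part of the set. In 7-week liver, the 13 members with 2 or more rule genes had Ccl5 at 4606 CPM and the 4 Treg genes at 121 CPM, against 2066 and 378 CPM in the 14 members with 1 rule gene. In neonatal liver, the 5 members with 2 or more rule genes had Ccl5 at 11627 CPM and the Treg genes at 224 CPM, against 1508 and 748 CPM in the 14 members with 1. The 5 members with 2 or more rule genes held 130, 103, 55, 24 and 0 Ccl5 UMIs, so 2 cells carried most of their Ccl5. Of these 5, 1 is a barcode with dendritic cell genes, described below. It held 7101 of their 26835 UMIs, with 0 UMIs of Ccl5 and of the 4 Treg genes. The other such barcode is among the 14.

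A pair of barcodes in neonatal liver stood apart. They held 15 and 6 UMIs of Siglech, 33 and 20 of H2-Aa, 99 and 25 of Cd74 and 62 and 30 of Tyrobp, genes of dendritic cells (Tyrobp also of NK cells), but only 2 and 6 Cd3 UMIs. Summed dendritic markers came to 194.5, 137, 2234 and 187 CPM in members of 7-week liver, 7-week spleen, neonatal liver and neonatal spleen, against 230.0, 285, 291 and 242 CPM in Foxp3-positive cells, with Xcr1 at 0 in members of all 4. Both are among the 25 members with Cd4 and among the 5 members of neonatal liver with 0 Treg gene UMIs. Of the pair, 1 is among the 3 with 2 or more Cd8 UMIs, the 4 led by Klrd1 and the 5 of neonatal liver with 2 or more rule genes.

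Which other genes differ from Foxp3-positive cells was tested on UMI sums per library, with the library as a block (edgeR's quasi-likelihood test, Benjamini-Hochberg adjustment over 9065 genes, threshold 0.05). Members were selected in these same cells, so genes that vary with the 4 rule genes or with Foxp3 were bound to differ. The test weighs a difference against its fitted spread over libraries. Members were higher in 63 genes (0.695% of the genes tested) and lower in 147 (1.62%), together 2.32%. With UMI totals in place of TMM scaling the split was 96 higher and 99 lower. The median log2 ratio of all genes was -0.17 with TMM and -0.03 with UMI totals, a shift smaller than any ratio described here as a rise or fall. All CPM values below are given in the order 7-week liver, 7-week spleen, neonatal liver, neonatal spleen, first for members and then for Foxp3-positive cells.

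Cxcr6, the receptor for CXCL16 on liver sinusoids, was at 753, 320.5, 641 and 127 CPM in members, against 20.8, 5.42, 131 and 21.4 CPM in Foxp3-positive cells. The log2 ratio was 3.52 ± 0.29 (SE, adjusted p = 1.2e-30), and members were higher in all 4 libraries. Cd160, a receptor of cytotoxic lymphocytes that binds herpesvirus entry mediator, was at 127, 320.5, 347 and 102 CPM in members, against 1.43, 10.6, 8.13 and 31.5 CPM in Foxp3-positive cells. This was the largest ratio among the genes named as higher in all 4 libraries, at 4.25 ± 0.38 (adjusted p = 5.8e-26), from 73 UMIs in 25 members. With every cell reduced to 1000 UMIs it was 2.65 (adjusted p = 0.079). Id2, the regulator that keeps effector and innate lymphocytes, was at 897, 458, 881 and 110.3 CPM in members, against 81.3, 37.6, 161 and 48.6 CPM in Foxp3-positive cells, a log2 ratio of 2.52 ± 0.26 (adjusted p = 1.1e-18).

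Cd40lg, the helper ligand that activates antigen-presenting cells, was at 313, 137, 125 and 59.4 CPM in members, against 21.0, 31.6, 13.1 and 20.6 CPM in Foxp3-positive cells, a log2 ratio of 2.75 ± 0.36 (adjusted p = 4.3e-11). Cd226, an activating receptor for nectins, was at 186, 183, 196 and 34.0 CPM in members, against 35.7, 30.8, 24.1 and 22.3 CPM in Foxp3-positive cells (log2 ratio 2.13 ± 0.35, adjusted p = 7.0e-07). Both were higher in every library, with the smallest gap of Cd226 in neonatal spleen. With 1000 UMIs per cell the call of Cd226 was lost (1.81, adjusted p = 0.17). Tbx21, which encodes T-bet, was higher by 2.17 ± 0.44 (adjusted p = 0.00016), Slamf7 by 2.88 ± 0.51 (adjusted p = 5.4e-06), Lyst, a lysosome trafficking gene, by 2.28 ± 0.47 (adjusted p = 0.00024) and Dusp6, a phosphatase of ERK, by 2.25 ± 0.47 (adjusted p = 0.00035). These 4 calls were lost without 7-week liver, where the adjusted p was 0.58 for Tbx21, 0.34 for Slamf7, 0.33 for Lyst and 0.38 for Dusp6. Ctla2a, a protease inhibitor, was higher by 2.30 ± 0.52 (adjusted p = 0.0012), with 0.17 without 7-week liver and 0.055 without 7-week spleen.

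**Figure D3:**
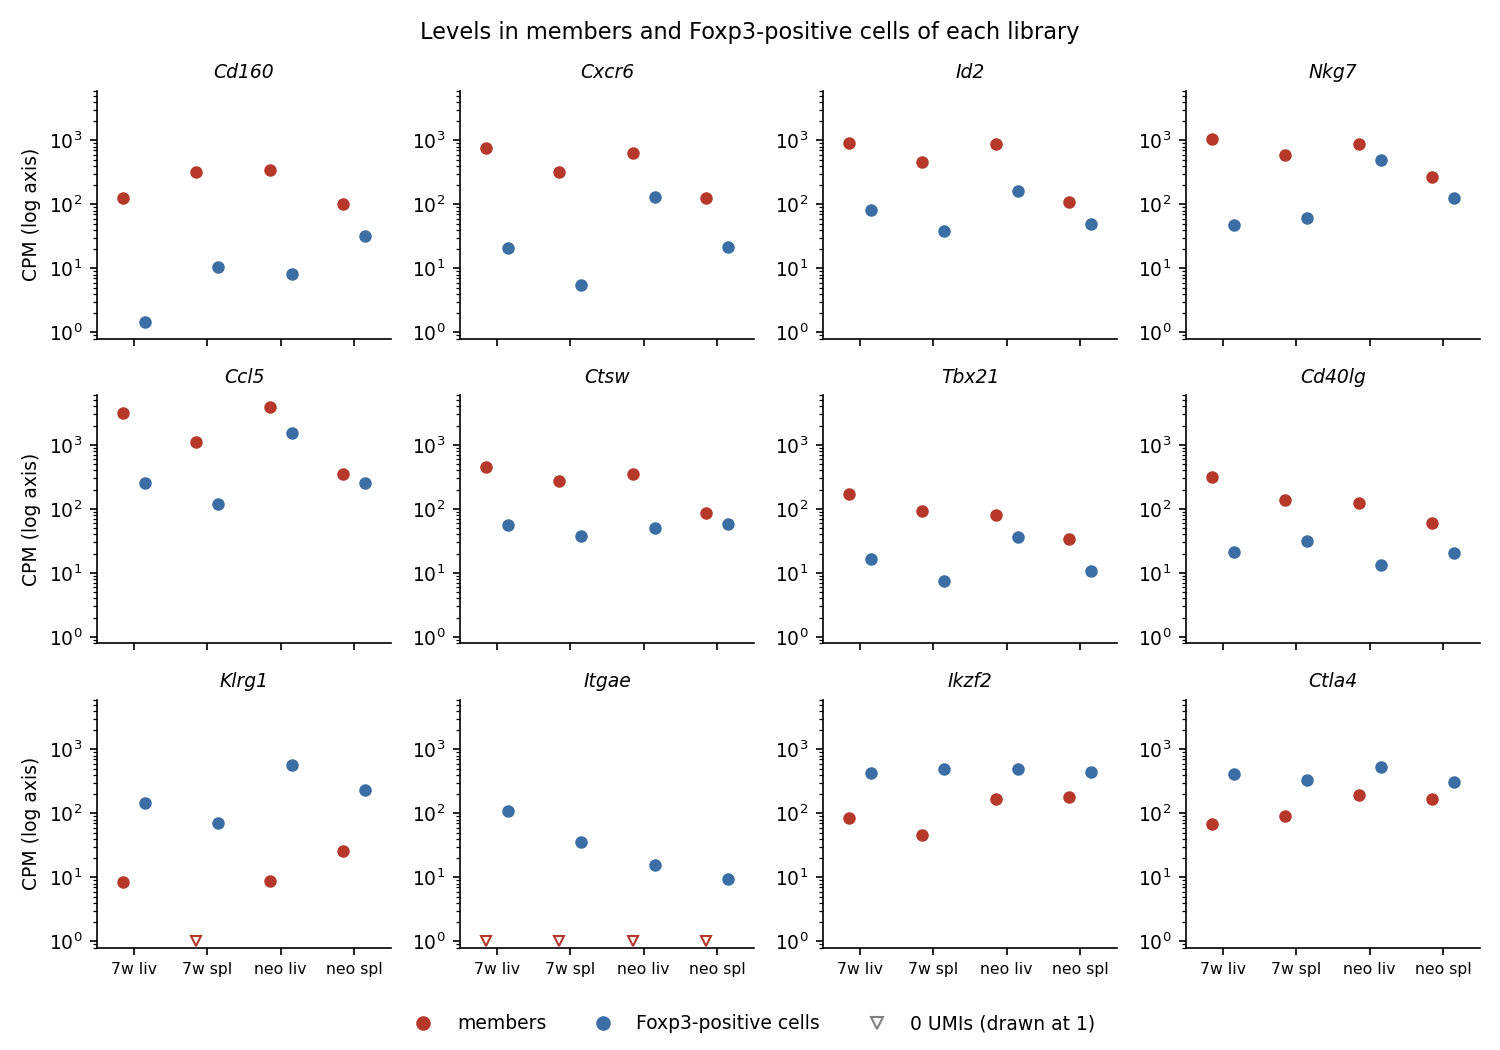
Levels of 12 genes in CPM (log axis) in members (red, left) and Foxp3-positive cells (blue, right) of 7-week liver (7w liv), 7-week spleen (7w spl), neonatal liver (neo liv) and neonatal spleen (neo spl); each point is a sum over cells and open triangles mark 0 UMIs. The first 8 genes are higher in members of every library and the last 4 lower.

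Cytotoxic granule genes were higher for 5 of 13 tested members of their list and lower for 1, with a median log2 ratio of 0.55 against -0.17 over all genes tested. Nkg7, a granule membrane protein, was at 1032, 595, 872 and 272 CPM in members, against 48.3, 60.6, 485 and 127 CPM in Foxp3-positive cells (log2 ratio 2.12 ± 0.26, adjusted p = 9.0e-13). It had UMIs in 46 of 64 members (71.9%) and 22% of Foxp3-positive cells, and with 1000 UMIs per cell in 48.4% and 11.1%. Ctsw, a cathepsin of cytotoxic cells, was at 448, 275, 356 and 84.9 CPM in members, against 55.4, 37.6, 50.3 and 57.3 CPM in Foxp3-positive cells (2.24 ± 0.28, adjusted p = 1.9e-12). Fasl, the death ligand, was at 110 CPM in members of 7-week liver, against 2.85 CPM in Foxp3-positive cells, and was at 0 UMIs in the 6 members of 7-week spleen. Its log2 ratio was 3.31 ± 0.58 (adjusted p = 5.4e-06), with 0.23 without 7-week liver. Gzma had 0 UMIs in all members, and Prf1, the pore protein perforin, had 5 UMIs in 5 members with a log2 ratio of 1.31 ± 0.90 (adjusted p = 0.70).

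Gzmb, the main granzyme protease of cytotoxic cells, differed between the ages in its order. It was at 118, 275, 17.8 and 59.4 CPM in members, against 79.9, 23.7, 810.4 and 179 CPM in Foxp3-positive cells. Members were thus above Foxp3-positive cells in the 7-week libraries and below them in the neonatal ones. In 7-week spleen the value rested on 6 UMIs in 2 members, 5 of them in 1 cell. The overall log2 ratio was -1.34 ± 0.34 (adjusted p = 0.0084 in edgeR and 0.93 in DESeq2). Without neonatal liver it was 0.014 (adjusted p = 0.99), without 7-week spleen -1.96 (adjusted p = 0.074) and without neonatal spleen -1.18 (adjusted p = 0.23).

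Among cytokines and chemokines, 3 of 12 tested genes were higher and 0 lower, with a median of 0.29. Ccl5, a chemokine of effector lymphocytes, was at 3129, 1099, 3925 and 357 CPM in members, against 251, 117, 1531 and 257 CPM in Foxp3-positive cells (1.94 ± 0.26, adjusted p = 1.6e-10). It was detected in 42 of 64 members (65.6%) and 23.6% of Foxp3-positive cells. Ifng, the cytokine of type 1 responses, was at 245, 0, 71.2 and 8.49 CPM in members, against 8.76, 4.26, 20.1 and 3.74 CPM in Foxp3-positive cells. It was higher by 2.94 ± 0.53 (adjusted p = 9.2e-06), but 13 of the 20 members that had it were in 7-week liver, without which the adjusted p was 0.84. Tnf was higher by 1.35 ± 0.40 (adjusted p = 0.042), with 0.84 without 7-week liver, 0.061 without 7-week spleen and 0.20 without neonatal liver.

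NK receptors and adaptors were mostly not measurable. Of 26 genes on the list, 6 passed the filter on low counts, 4 of them higher (Cd160, Fcer1g, Cd7 and Hcst) and 1 lower (Klrg1). The call of Cd7 was lost at an adjusted p of 0.055 without 7-week liver, 0.35 without 7-week spleen and 0.79 without neonatal liver. Fcer1g, an adaptor of activating receptors, was at 0, 0, 436 and 8.49 CPM in members, against 0, 3.40, 4.76 and 4.40 CPM in Foxp3-positive cells, and 22 of its 50 UMIs were in the pair of barcodes with dendritic markers. Its adjusted p was 3.5e-06 in edgeR and 0.55 in DESeq2. Klrg1, an inhibitory receptor of effector and effector Treg cells, was the leading lower gene, at 8.46, 0, 8.90 and 25.5 CPM in members, against 144, 70.6, 561 and 232 CPM in Foxp3-positive cells. Its log2 ratio was -4.48 ± 0.47 (adjusted p = 2.4e-18), and 3 members held its 5 UMIs, where 109 were expected at the levels of Foxp3-positive cells.

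Homing receptors fell into both directions, with 3 of 26 tested genes higher (Cxcr6, Cxcr3 and Itga1) and 5 lower, among them Itgae, S1pr1, Itgb7 and Ccr7. Itgae, the CD103 chain that binds E-cadherin, had 0 UMIs in members where 16.5 were expected, and so was at least 5.49-fold lower against a floor of 3 UMIs over all members. Its adjusted p was 0.00026, and 0.48 without 7-week liver. S1pr1, the receptor for exit into blood, was lower, with a log2 ratio of -1.43 ± 0.33 (adjusted p = 0.0022), with 0.15 without 7-week liver. Itga1, the collagen receptor chain CD49a of liver-resident lymphocytes, was higher by 2.81 ± 0.80 (adjusted p = 0.029) from 8 UMIs in 8 members, with 0.85 without 7-week liver, 0.19 without 7-week spleen and 0.16 without neonatal spleen.

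Treg identity genes were lower in 10 of 22 tested and higher in 0, with a median log2 ratio of -1.32. The absence of Foxp3 UMIs in the rule bears on this list, so its direction is not independent of how members were chosen. Ikzf2, which encodes Helios, was at 84.6, 45.8, 169 and 178 CPM in members, against 429, 497, 499.6 and 437 CPM in Foxp3-positive cells (-1.95 ± 0.28, adjusted p = 2.9e-09). Ctla4, the inhibitory receptor that Treg cells use against CD80 and CD86, was at 67.7, 91.6, 196 and 169.8 CPM in members, against 413, 331, 539 and 311 CPM in Foxp3-positive cells (-1.72 ± 0.28, adjusted p = 5.3e-07). Gpr83, a Treg receptor, was at 0, 0, 0 and 34.0 CPM in members, against 45.2, 97.0, 29.3 and 116 CPM in Foxp3-positive cells, and its 4 UMIs were all in 1 member. Its adjusted p was 0.00033, and 0.094 with 1000 UMIs per cell. Flicr, a noncoding RNA gene beside Foxp3, was lower, at -2.48 ± 0.63 (adjusted p = 0.0071), with 0.089 without 7-week liver, 0.060 without 7-week spleen and 0.062 without neonatal liver. Tnfrsf18 (GITR) was at 228, 504, 231 and 382 CPM in members, against 361, 409, 627 and 509.5 CPM in Foxp3-positive cells (-0.81 ± 0.25, adjusted p = 0.054).

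Other leading lower genes were Rln3, a relaxin peptide gene (-1.92 ± 0.30, adjusted p = 1.4e-07), and Resf1, a silencing regulator of retroelements (-2.16 ± 0.36, adjusted p = 6.9e-07). Rln3 was at 8.46, 0, 116 and 441 CPM in members, against 127, 175, 632 and 766 CPM in Foxp3-positive cells. Both kept their call when any 1 library was left out. Ncmap, P2ry10, Igflr1, Trim59, Trpv2 and Ctps2 were also lower, with log2 ratios of -2.02 to -2.98, each with 8 or fewer member UMIs. Each of these 6 lost its call without at least 1 library, with adjusted p up to 0.13 for Ncmap, 0.13 for P2ry10, 0.073 for Igflr1, 0.13 for Trim59, 0.16 for Trpv2 and 0.26 for Ctps2.

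The resting and naive list was lower in 6 of 17 tested and higher in 0 (median -0.98), among them Cd27, S1pr1, Klf2, Ccr7 and Foxp1. Tcf7, the regulator of resting and memory T cells, was on that list at 144, 183, 125 and 76.4 CPM in members, against 109, 111, 48.1 and 105 CPM in Foxp3-positive cells (0.33 ± 0.31, adjusted p = 0.82). Of 24 lineage regulators tested, 4 were higher (Id2, Irf8, Tbx21 and Bhlhe40) and 1 lower (Klf2), with a median of -0.18. Immediate early and stress genes were lower in 4 of 17 (median -0.51). Among them Zfp36, which destabilises cytokine transcripts, was at 271, 91.6, 222.5 and 119 CPM in members, against 798, 386, 388 and 316 CPM in Foxp3-positive cells (-1.47 ± 0.27, adjusted p = 1.4e-05). Fos, of the AP-1 factor, was lower, at -1.42 ± 0.32 (adjusted p = 0.00098), with 0.055 without 7-week liver. Of the interferon response list, 1 of 21 was lower, Ifi27l2a (-1.22 ± 0.26, adjusted p = 0.00034 in edgeR and 0.061 in DESeq2), and 0 were higher.

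Cytokine receptors held 1 lower gene of 15 tested, Il6ra, the receptor chain for IL-6 (-1.76 ± 0.40, adjusted p = 0.0012, and 0.23 without 7-week liver). Il2rb, the chain that carries IL-2 and IL-15 signals, was at 787, 275, 347 and 365 CPM in members, against 398, 471, 589 and 370.2 CPM in Foxp3-positive cells (-0.20 ± 0.25, adjusted p = 0.90). Inhibitory receptors were lower for 3 of 8 tested (Ctla4, Cd5 and Tigit) and higher for 1 (Cd160). The call of Tigit was lost at an adjusted p of 0.15 without 7-week liver and 0.086 without neonatal liver, and that of Cd5 at 0.089 without 7-week liver and 0.060 without 7-week spleen. Proliferation genes were called in 0 of 24, MHC class I genes in 0 of 15 and glycolysis genes in 0 of 14, with medians of 0.33, -0.23 and -0.03.

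**Figure D4:**
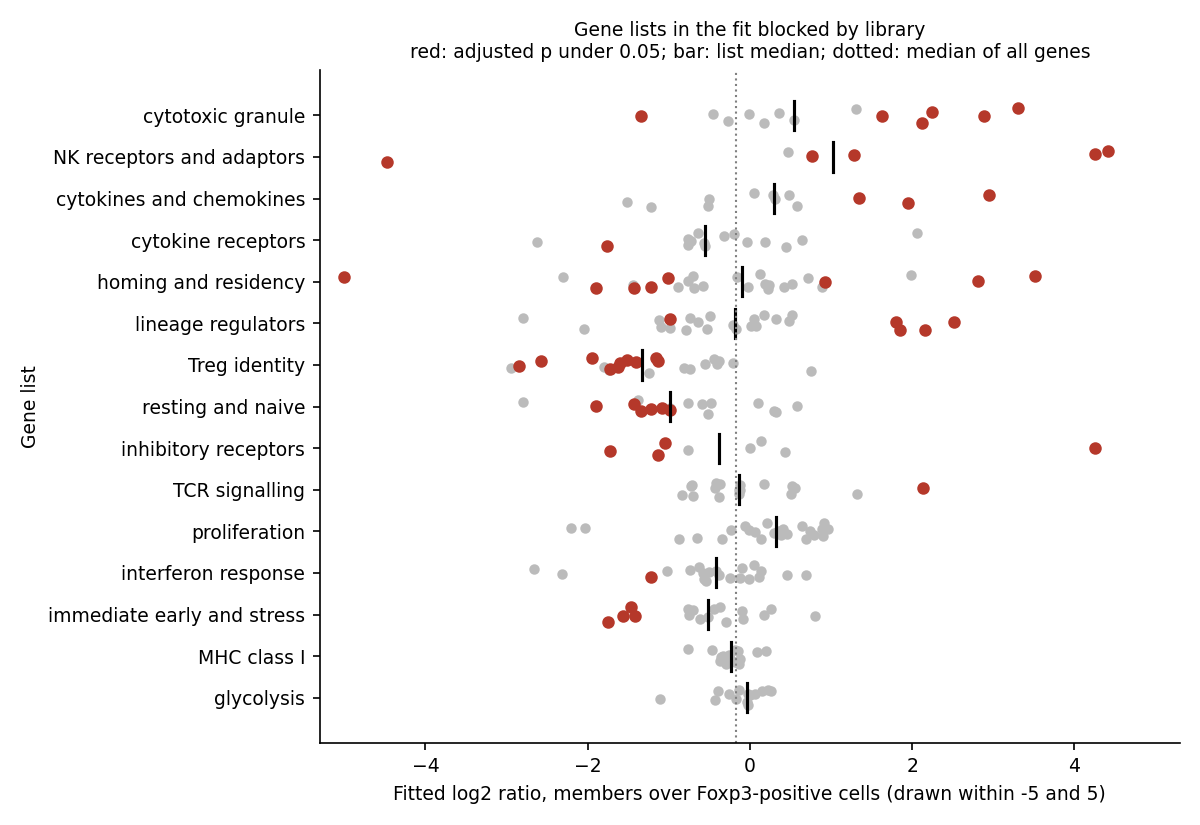
Fitted log2 ratio of members to Foxp3-positive cells for each tested gene (points) of 15 gene lists, drawn within -5 and 5, with list medians (black bars) and the median of all genes (dotted). Points past the threshold (red) are higher for 5 and lower for 1 of 13 cytotoxic genes, higher for 3 and lower for 5 of 26 homing genes, lower for 10 of 22 Treg identity genes and lower for 6 of 17 resting genes.

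The ratio of members to Foxp3-positive cells was compared between ages and between tissues with interaction terms in a fit of the same sums. Each term sets 2 libraries against 2. The age term, 7-week minus neonatal, was called for 11 genes (0.121% of those tested), 8 of them positive (0.0883%) and 3 negative (0.0331%). Nkg7 differed by 2.77 on the log2 scale (adjusted p = 0.00054) and Cxcr6 by 2.82 (adjusted p = 0.00094). Foxp3-positive cells had 48.3 and 20.8 CPM of these genes in 7-week liver, against 485 and 131 CPM in neonatal liver. Gzmb differed by 4.72 (adjusted p = 9.2e-07), with the values given above. Cd74 differed by -2.94 (adjusted p = 0.036), and was at 59.2, 0, 1157 and 17.0 CPM in members, against 92.3, 139, 109 and 94.5 CPM in Foxp3-positive cells. The pair of barcodes with dendritic markers held 124 of its 130 member UMIs in neonatal liver. Cd8b1 was at 0, 0, 71.2 and 178 CPM in members, against 19.4, 18.2, 9.59 and 16.7 CPM in Foxp3-positive cells (adjusted p of the age term 0.0498), with 69.0% of its UMIs in 1 cell.

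The tissue term, liver minus spleen, was called for 45 genes (0.496%), 12 of them positive (0.132%) and 33 negative (0.364%). Its leading genes, by size of the ratio, were histone genes of dividing cells and H2-Aa. Hist1h2ap was at 42.3, 1694, 8.90 and 934 CPM in members, against 370, 169.5, 440.5 and 202.5 CPM in Foxp3-positive cells, a difference of -6.36 (adjusted p = 1.0e-25). All 37 of its UMIs in 7-week spleen were in 1 of the 6 members, and 4 of 12 members held those of neonatal spleen. Hist1h1b (-6.27, adjusted p = 2.4e-07), Hist1h2ao (adjusted p = 3.7e-06) and Hist1h1d (adjusted p = 0.0023) followed, with UMIs in 6, 3 and 6 members. Cycling genes summed to 2 or more UMIs in 10 of 64 members (15.6%, interval 7.76 to 26.9%), against 11.95% of Foxp3-positive cells. The share of Foxp3-positive cells thus lay within the interval of members. These members were 4 of 7-week liver, 1 of 7-week spleen, 2 of neonatal liver and 3 of neonatal spleen. In that order they made up 14.8%, 16.7%, 10.5% and 25% of members, against 7.63%, 3.75%, 21.3% and 11.6% of Foxp3-positive cells. The highest sum was 72 UMIs, in 1 cell of neonatal spleen. H2-Aa had 54 member UMIs, all in neonatal liver, and 53 of them in the pair of barcodes with dendritic markers (adjusted p = 0.0011).

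**Figure D5:**
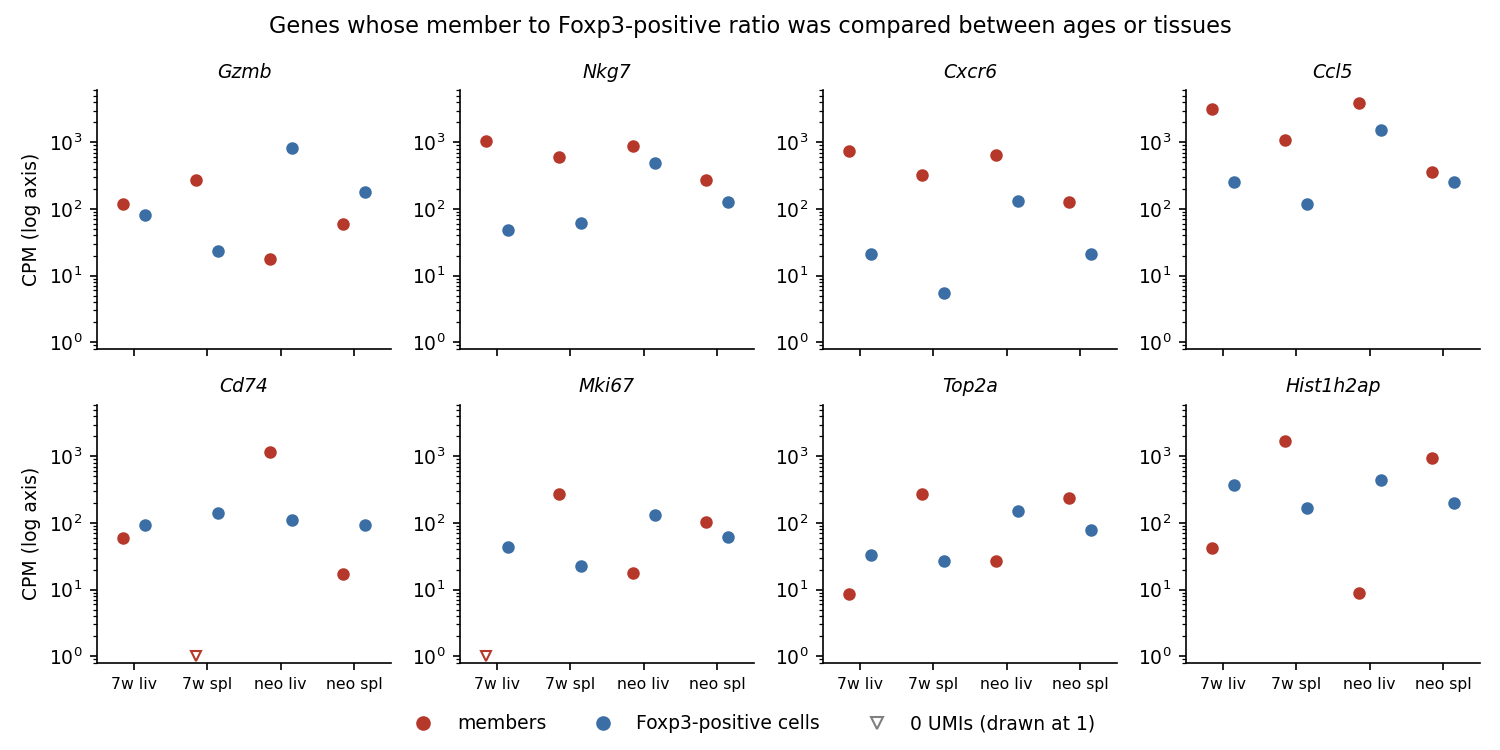
Levels in CPM (log axis) in members (red, left) and Foxp3-positive cells (blue, right) of each library, named as in the plot of leading genes. The first 5 genes are Gzmb, Nkg7, Cxcr6 and Cd74 of the age term, and Ccl5, where Gzmb changes order between ages. Cd8b1, also named for the age term, is not drawn. The last 3 are cycling genes, which are higher in members of both spleens and lower in members of both livers.

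Members of different libraries were set side by side without a test. In members of 7-week liver over those of neonatal liver, Btg1, which restrains growth, had a CPM ratio of 3.39 (95% conditional interval 2.21 to 5.36), with 846 CPM in 7-week and 249 CPM in neonatal members. Junb had a ratio of 2.51 (1.84 to 3.45), and the histone gene H3f3b one of 0.376 (0.299 to 0.468). In neonatal mice, members of liver over those of spleen had a Ccl5 ratio of 11.01 (8.01 to 15.5), from 441 UMIs in liver and 42 in spleen. Srgn, a granule proteoglycan, was at 778 CPM in 7-week spleen members and 2546 CPM in neonatal spleen members, a ratio of 0.306 (0.176 to 0.498). The intervals cover counting error only.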

How the data were processed

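UMI counts per gene and barcode were used as deposited by the authors in 4 filtered matrices of 32285 features. The matrices were written by Cell Ranger 4.0.0, per the file headers. The submitters' processing notes name mm10 and Seurat 4.0.2, with no role given. Gene positions came from GENCODE, which matched 32235 features (99.8%).

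Cells were chosen by the rule in Python 3.11.15, with doublet scores from Scrublet in scanpy 1.11.5 at 0.8% per 1000 cells, since the automatic threshold marked 0. Doublets were kept. UMIs were summed per library and class. Sums were tested with edgeR 4.0.16 in R 4.3.3 (TMM, filterByExpr, library as a block, quasi-likelihood test, Benjamini-Hochberg adjustment, threshold 0.05). The test was first run on simulated sums, which hold no single cells. These were drawn at 1 fixed dispersion of 0.05, and only genes at 50 CPM or more were changed. Spread from single members that hold most UMIs of a gene was not simulated. Recovery in the real sums can thus be lower than given here. Between members and Foxp3-positive cells it recovered 49 of 50 genes raised 4-fold and 41 of 50 lowered to 0.25. At 2-fold it recovered 16 of 50 in each direction. The age term recovered 5 of 50 raised 4-fold and 5 of 50 lowered to 0.25, and the tissue term 3 and 0 of 50. Shares have 95% exact binomial intervals, and thinning drew 1000 UMIs per cell. All 4 libraries carry replicate number 1, and members and Foxp3-positive cells are paired because they come from the same library.

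Members, gene lists and tests were chosen with earlier results of these data known. Named genes were the 12 highest and 12 lowest called ratios that had 50 CPM or more and 1 direction in 4 libraries, 4 genes per list, 5 genes per term, and the 5 highest and lowest ratios between libraries. Receptor segments, ribosomal and sex-linked genes were left out. The values of 1 gene that the rule names are not reported here. Tnfrsf18, Tcf7, Il2rb, Prf1, Tnf, Fos and the genes given as called members of a list were added after their values were seen where they fall outside this rule. Alternatives were DESeq2 1.42.0, UMI totals, no filter on low counts, no block, leaving out each library, other thresholds, thinning, other reference cells, and barcodes with doublet scores or other lineages left out. The number of UMIs per library limits precision, and intervals cover counting error only.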

Additional observations from a re-analysis of the deposited data

Results flagged for a closer look

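The ratio of members to Foxp3-positive cells differed between ages for 11 genes (0.121% of 9065 tested) and between tissues for 45 (0.496%). These are calls of the interaction terms of edgeR's quasi-likelihood test, and the 5 genes named for each term are given. Between 7-week and neonatal libraries the adjusted p was 9.2e-07 for Gzmb, 0.000539 for Nkg7, 0.000944 for Cxcr6, 0.0364 for Cd74 and 0.0498 for Cd8b1. Between liver and spleen it was 1e-25 for Hist1h2ap, 2.4e-07 for Hist1h1b, 3.65e-06 for Hist1h2ao, 0.00229 for Hist1h1d and 0.00106 for H2-Aa. Single cells carried much of several of these: 1 member held 71.2% of Cd74, 69.0% of Cd8b1, 61.1% of H2-Aa and 45.8% of Hist1h2ap member UMIs. For Gzmb, 1 member of 7-week spleen held 5 of the 6 UMIs of that library's members. Their part in these terms was not tested.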

How the results depend on the processing

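Between members and Foxp3-positive cells, 63 genes were higher and 147 lower. DESeq2 called 19 and 25, UMI totals 96 higher, members with at least 2 rule genes (3 libraries) 31 and 60, cells thinned to 1000 UMIs 10 and 53, and the fit without barcodes with other lineage UMIs 28 and 69. A shorter lineage list, chosen after seeing the data, gave 59 and 151. The settings tested unlike numbers of genes, so counts of calls are not on 1 scale. The main fit tested 9065 genes, at least 2 rule genes 8804, thinned cells 6117 and the fit without other lineages 7092. Without the filter 18082 were tested, and without 7-week liver 10328. Without the library block (the pairing of both classes by library) edgeR called 0 and 0, with 921 genes at an unadjusted p under 0.05. Leaving out 1 library gave 30 to 54 higher and 44 to 102 lower. The age term called 11 genes, against 1 with DESeq2, 6 without the filter, 17 at 2 or more UMIs, 0 in edgeR at 5 or more (258 unadjusted) and 1 thinned. The tissue term called 45, against 67 with UMI totals (12 positive, 55 negative), 59 at 2 or more UMIs, 7 with DESeq2, 25 at 5 or more UMIs and 1 thinned. Neither term could be fitted for at least 2 rule genes.

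The share of members in 7-week liver was 0.459% at 5 or more UMIs, 0.543% with at least 2 rule genes and 0.511% thinned before the rule. In 7-week spleen it was 0.284% at 2 or more UMIs, 0% with 2 rule genes and 0.0357% thinned. In neonatal liver it was 0.0891% with 2 rule genes and 0.161% thinned, and in neonatal spleen 0.0163% and 0.0531%. Leaving out 1 library gave log2 ratios from -2.29 to 0.014 for Gzmb and from -1.74 to 1.23 for Cd74, whose directions both turned without neonatal liver. Directions also turned for Hist1h2ap (-5.43) with at least 2 rule genes, and without cycling members for Vim in 7-week over neonatal liver (0.733) and Ifi27l2a in 7-week liver over spleen (0.945). The causes were not tested. Of the 47 called genes that the naming rule took, 19 kept their call in all 4 fits that leave out 1 library, and Fcer1g and H2-Aa could not be fitted without neonatal liver. The 6 members of 7-week spleen held 21840 UMIs in all, which limits what can be seen there.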
